A study of Mus musculus with 4 samples.

Results

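The genes described here are the 10 integrin chains of blood progenitors, lymphocytes and dendritic cells that were picked by symbol, namely *Itga4*, *Itga6*, *Itgal*, *Itgae*, *Itgax*, *Itgav*, *Itgb1*, *Itgb2*, *Itgb3* and *Itgb7*. All 10 were found among the 23361 genes of the table, which holds 16 further integrin chains. RNA was sequenced from early T lineage progenitors (ETP), the most immature progenitors of the thymus, in 2 libraries of old and 2 libraries of young mice. The old mice were 72 weeks and the young mice 4 to 6 weeks of age, and all were female C57BL6 mice without a further treatment or allele in the labels. The deposited table calls the old condition 20m, which does not match the label of 72 weeks. Thymocytes that were CD44+ CD117+ and Lin- CD25- were sorted as ETP, and the lineage cocktail held an antibody to CD11b, the product of *Itgam*, but none to the products of *Itgax* or *Itgae*. Pooling of mice, and whether libraries of an age came from separate mice, are not stated in the labels or methods, so p-values reflect only how these libraries vary, and that variation may be technical.

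Integrins are adhesion receptors built of an alpha and a beta chain. Talin and kindlin bind the tail of the beta chain and bring the receptor to its active state, and the active receptor holds cells to matrix proteins or to ligands on other cells and signals through kinases of the FAK and Src families. Chains with β2 are the leukocyte integrins, α4 pairs with β1 or β7 and guides progenitors and lymphocytes into tissues, αE pairs with β7 and binds E-cadherin, α6 binds laminin, and αV pairs with β3 and other beta chains. In mice CD11c, the product of *Itgax*, is the usual surface marker of dendritic cells, and CD103, the product of *Itgae*, marks intraepithelial T cells and cross-presenting dendritic cells.

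The libraries held 11816478 and 4839341 fragments in old replicates 1 and 2 and 16658864 and 6414915 in young replicates 1 and 2. Levels are given as normalized CPM, the counts scaled to a common library size by TMM, and levels of different genes are compared only as TPM, which were computed from the authors' FPKM and account for length. *Kit*, the gene of the sorting marker CD117, was at 936 and 945 normalized CPM in old and at 764 and 1096 in young replicates 1 and 2. *Cd44* was at 636 and 519 normalized CPM in old and at 496 and 517 in young ETP, and *Notch1*, the receptor that commits progenitors to the T lineage, at 963 and 577 in old and 1273 and 1204 in young ETP. *Il2ra*, the gene of CD25, was at 31.8 and 22.9 normalized CPM in old and at 26.3 and 39.9 in young ETP. In bulk libraries, more or fewer cells of a type and more or less RNA per cell cannot be told apart.

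Per length, the 10 genes spanned a wide range of levels. *Itgal*, the alpha chain of LFA-1, and *Itga4* had the highest TPM among them in 3 of the 4 libraries. In old replicate 2 *Itgb2* came between them. *Itga4* was at 233 ± 176 TPM in old and 288 ± 209 TPM in young ETP, and *Itgal* at 184 ± 28.1 TPM in old and 205 ± 40.1 TPM in young ETP (SD, n = 2 libraries each, as for all errors here). *Itgb1* followed at 110.4 ± 11.8 TPM in old and 102.1 ± 12.6 TPM in young ETP. The levels of *Itga4* and *Itgal* overlapped in either age, whereas *Itgal* lay above *Itgb1* in every library. In the order of mean TPM (*Itga4*, *Itgal*, *Itgb1*, *Itgb2*, *Itgb7*, *Itgax*, *Itgae*, *Itgav*, *Itga6*, *Itgb3*), that was the only step between neighbours without overlap in old ETP. In young ETP, *Itgb1* also lay above *Itgb2*, *Itgb7* above *Itgax*, *Itgax* above *Itgae* and *Itga6* above *Itgb3* without overlap, and the other neighbours overlapped or stood in the reverse order. *Itgav*, *Itga6* and *Itgb3* lay between 4.15 and 24.9 TPM, and their order changed between libraries. They took the lowest ranks in both old libraries, but *Itgav* ranked 6 of 10 in both young libraries. *Itgae* had the lowest TPM of the 10 genes in both young libraries, at 2.79 and 5.36 TPM, but ranked 7 of 10 in both old libraries, at 20.9 and 116 TPM. Among all tested genes its young levels lay at percentiles 1.53 and 3.52 and its old levels at percentiles 39.7 and 86.2. Tested genes had to reach an FPKM of 1 in 2 or more libraries, and *Itgae* did so only in old ETP. Its low place among tested genes in young ETP therefore follows from this filter.

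**Figure D1:**
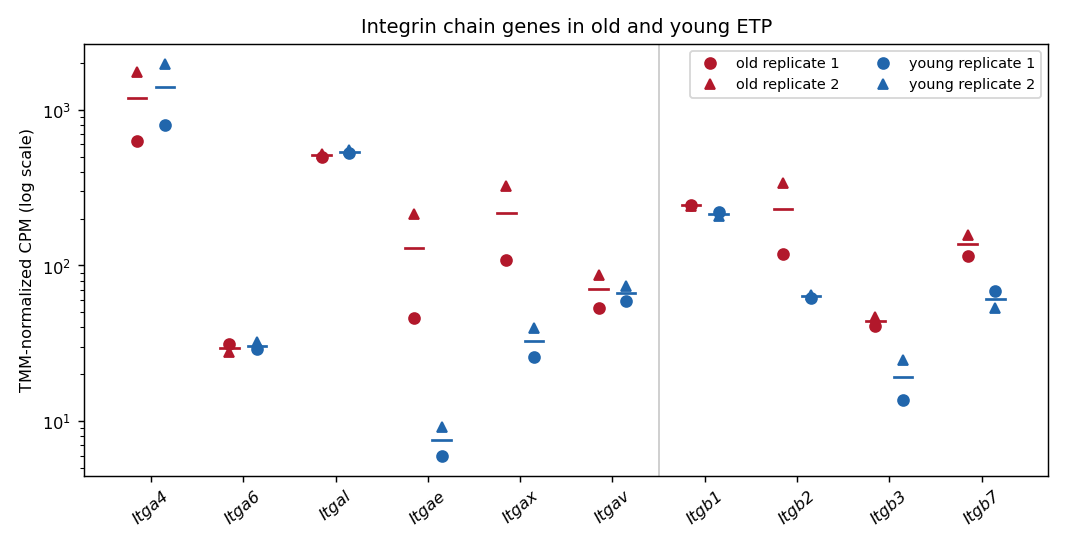
Normalized CPM on a log axis for the 10 integrin genes, alpha chains left and beta chains right of the grey line. Each symbol is a library, red for old and blue for young ETP, and each short bar is the mean of an age. *Itgae*, *Itgax*, *Itgb2*, *Itgb3* and *Itgb7* sit higher in both old libraries, and *Itgal* and *Itgb1* differ little.

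For the comparison of old with young ETP, edgeR's quasi-likelihood test was run on the 10080 genes whose FPKM reached 1 in 2 or more libraries, with Benjamini-Hochberg adjustment over all of them. All 10 integrin genes were among them, *Itgae* only through its old libraries, since its FPKM was 0.786 and 0.725 in young ETP. None of the 10 passed an adjusted p under 0.05 in edgeR, as for 0% of all tested genes. At an unadjusted p under 0.05, 5 of the 10 were higher in old ETP, against 4.65% of all tested genes, and 0 were lower, against 0.913% of all tested genes. DESeq2 on the same counts called *Itgae*, *Itgax* and *Itgb2* higher, 3 of the 10, against 2.08% of all tested genes, and 0 lower, against 0.149%. Without old replicate 1, edgeR itself called the same 3 genes higher, against 2.16% of all tested genes, and 0 lower, against 0.0298%. That fit had old replicate 2 as its lone old library, the library with the highest levels of these 3 genes. The spread of the lone library was assumed to be like that of the young ones. EdgeR made none of these calls when another library was left out instead. In the fit of all 4 libraries, estimates were higher in old ETP for 7 of the 10 genes (46.6% of all tested genes) and lower for 3 (53.4%). The ages did not overlap for 7 of the 10 genes, against 31.6% of all tested genes, with the old libraries above the young ones for 6 (16.1%) and below them for 1 (15.5%). The median log2 fold change, old over young, was 0.67 for the 10 genes and -0.03 for all tested genes. Since the genes were chosen with earlier results of these data known and *Itgae* had to be high in old ETP to be tested, these counts and medians only describe the 10 genes.

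Among the leukocyte integrins, the shared beta chain and *Itgax* had higher levels in old ETP and *Itgal* did not. *Itgb2*, the beta chain of all leukocyte integrins (chromosome 10 of GRCm38, 77530252 to 77565708, plus strand), was at 119 and 339 normalized CPM in old replicates 1 and 2, against 62.2 and 65.0 in young replicates 1 and 2. Old replicate 2 stood far above the other 3 libraries, and the ages did not overlap. Its log2 fold change was 1.84 (standard error 0.52, adjusted p = 0.558 from edgeR and 0.0321 from DESeq2), and it was 0.88 without old replicate 2 but 2.45 when old replicate 1 was left out. *Itgax* (chromosome 7, 128129547 to 128150657, plus strand) was at 109 and 325 normalized CPM in old and at 25.7 and 39.9 in young ETP. The lower old library was 2.72 times as high as the higher young library. For *Itgax* the log2 fold change was 2.73 (standard error 0.59, adjusted p = 0.376 from edgeR and 2.6e-04 from DESeq2), and it was 1.71 without old replicate 2 but 3.36 when old replicate 1 was left out.

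*Itgal* (chromosome 7, 127296260 to 127335138, plus strand) was at 500 and 523 normalized CPM in old and at 525 and 552 in young ETP. All 4 libraries lay within a narrow range, with the old libraries just below the young ones, and the log2 fold change was -0.08 (standard error 0.26, adjusted p = 0.999 from edgeR). *Itgam*, the gene of CD11b, the alpha chain of Mac-1, lies next to *Itgax* and was at 50.2 and 67.8 normalized CPM in old and at 51.1 and 60.2 in young ETP (log2 fold change 0.08, adjusted p = 0.999 from edgeR). Its ages overlapped, and 3450 of its exonic positions are shared with a gene annotated on the same strand, and how reads from shared positions were counted is not stated. *Itgad*, the last alpha chain of this cluster on chromosome 7, did not reach the filter, at 2.41 and 1.96 normalized CPM in old and 2.52 and 3.36 in young ETP.

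*Itgae* had the largest fold change of the 10 genes. This gene of the alpha chain CD103 (chromosome 11, 73090583 to 73147446, plus strand) rested on 551 and 985 fragments in old and 102 and 57 fragments in young replicates 1 and 2. Its level was 45.8 and 215 normalized CPM in old and 5.97 and 9.13 in young ETP. The lower old library was 5.02 times as high as the higher young library, and the 2 old libraries themselves differed 4.68 times. Its log2 fold change was 4.12 (standard error 0.81, adjusted p = 0.362 from edgeR and 9.2e-07 from DESeq2), and it was 2.60 without old replicate 2 but 4.89 when old replicate 1 was left out. *Itgb7*, its only known beta partner (chromosome 15, 102215995 to 102231944, minus strand), was at 116 and 158 normalized CPM in old and at 68.8 and 53.7 in young ETP. The ages did not overlap, and here the old libraries differed by only 1.36 times. The log2 fold change of *Itgb7* was 1.16 (standard error 0.30, adjusted p = 0.466 from edgeR and 0.122 from DESeq2), and it ran from 0.89 to 1.40 with a library left out.

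**Figure D2:**
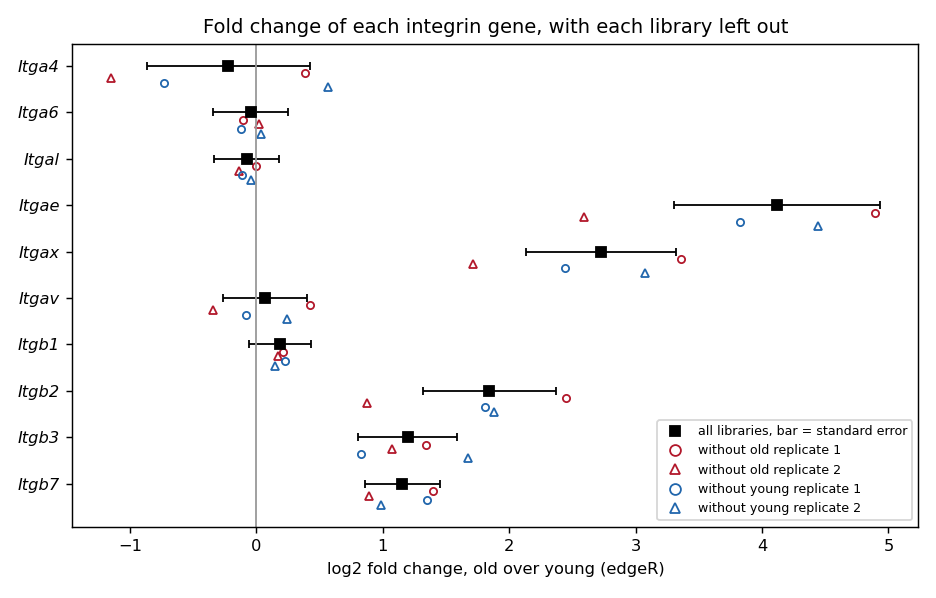
Log2 fold change of each integrin gene, positive where higher in old ETP. Black squares are the edgeR estimates from all 4 libraries with their standard errors, and open symbols are the estimates with 1 library left out. *Itgae*, *Itgax* and *Itgb2* stay positive throughout but shrink to 2.60, 1.71 and 0.88 without old replicate 2, and *Itga4* takes either sign.

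The sequence before the gene start is shown for *Itgax* and *Itgb7*, which had log2 fold changes above 1, and for *Itgb1* and *Itga4*, which did not. RefSeq sequences of GRCm38.p6 were matched for 5 of the 10 genes. Each line gives the 200 bases from 220 to 21 bases before the RefSeq gene start, on the gene's strand, and capitals mark the searched letters on either strand. The RefSeq starts of *Itgax* and *Itgb7* differ by a few bases from the GENCODE starts given above.
*Itgax*, chr7:128129330-128129529, plus strand: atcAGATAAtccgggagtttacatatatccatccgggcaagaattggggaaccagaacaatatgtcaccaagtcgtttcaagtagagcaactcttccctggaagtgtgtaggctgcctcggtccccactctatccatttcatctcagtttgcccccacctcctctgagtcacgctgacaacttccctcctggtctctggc
*Itgb7*, chr15:102231956-102232155, minus strand: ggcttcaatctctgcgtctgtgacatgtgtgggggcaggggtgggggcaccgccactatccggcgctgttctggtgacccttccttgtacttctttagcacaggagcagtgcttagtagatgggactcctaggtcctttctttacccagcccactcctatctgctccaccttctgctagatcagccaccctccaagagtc
*Itgb1*, chr8:128685434-128685633, plus strand: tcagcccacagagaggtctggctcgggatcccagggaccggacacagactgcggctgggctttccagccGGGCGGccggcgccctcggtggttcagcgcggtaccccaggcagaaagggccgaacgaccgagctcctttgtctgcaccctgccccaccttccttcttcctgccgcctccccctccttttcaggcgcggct
*Itga4*, chr2:79255206-79255405, plus strand: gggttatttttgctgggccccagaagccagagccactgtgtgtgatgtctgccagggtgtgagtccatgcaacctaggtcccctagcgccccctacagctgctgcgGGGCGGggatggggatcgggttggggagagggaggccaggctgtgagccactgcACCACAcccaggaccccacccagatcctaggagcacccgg

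Letters of 5 motifs were searched on both strands. *Itgax* held AGATAA, the core of GATA sites, which is found in 8.25% of all 32851 RefSeq promoter windows of this length. *Itgb1* and *Itga4* each held GGGCGG, the GC box, found in 28.7% of all windows. The RUNX core TGTGGT, found in 11.5% of windows, was held by *Itga4* on the other strand, apart from its GC box. The PU.1 core GAGGAA, found in 18.8% of windows, was in none of these 4 windows but in that of *Itgav*. The ETS core CCGGAA, found in 9.44% of windows, was in none of the 5 matched genes, and *Itgb7* held no searched letters. The share of G and C was 50.5% in *Itgax* and 56.5% in *Itgb7*, against 68.5% in *Itgb1* and 65.0% in *Itga4*, with a median of 52.5% over all windows. A match is a description of these letters and not a binding site.

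*Itga4*, the alpha chain of VLA-4 and of the gut-homing receptor α4β7 (chromosome 2, 79255426 to 79333123, plus strand), varied more within an age than between the ages. It was at 632 and 1754 normalized CPM in old replicates 1 and 2 and at 803 and 1976 in young replicates 1 and 2. The second library was the higher one in either age, by 2.77 times in old and 2.46 times in young ETP. For *Itga4* the log2 fold change was -0.22 (standard error 0.64, adjusted p = 0.999 from edgeR), and it ran from -1.15 to 0.57 with a library left out. *Itga4* shares 1124 exonic positions with *Cerkl* on the other strand, and whether counting used strand is not given. *Cerkl* had 19 and 26 fragments in old and 21 and 14 in young ETP, against 7605 or more for *Itga4* in each library. *Itgb1*, the beta chain of VLA-4 and of the laminin receptor α6β1 (chromosome 8, 128685654 to 128733200, plus strand), was at 246 and 242 normalized CPM in old and at 220 and 209 in young ETP. Its libraries differed by 1.02 times within old and 1.05 times within young ETP, and the lower old library was 1.10 times as high as the higher young library. The log2 fold change of 0.19 (standard error 0.25, adjusted p = 0.999 from edgeR) turned to -0.095 with limma on log2(FPKM + 1), a scale on which all tested genes had a median of -0.27.

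*Itga6*, the alpha chain of α6β1 (chromosome 2, 71745616 to 71858416, plus strand), was at 31.5 and 27.7 normalized CPM in old and at 28.9 and 32.2 in young ETP. The ages overlapped, and the log2 fold change was -0.04 (standard error 0.30, adjusted p = 0.999 from edgeR). *Itgav*, the alpha chain of receptors for vitronectin and latent TGFβ (chromosome 2, 83724397 to 83806916, plus strand), was at 53.6 and 87.1 normalized CPM in old and at 59.4 and 74.3 in young ETP. It shares 634 exonic positions with *Gm13684* on the other strand, and its ages overlapped too, with a log2 fold change of 0.07 that took the other sign on the FPKM scale, at -0.19. *Itgb3*, the beta chain of the αV receptor and of the platelet fibrinogen receptor (chromosome 11, 104608000 to 104670476, plus strand), was at 40.7 and 46.8 normalized CPM in old and at 13.7 and 24.7 in young ETP. Here the ages did not overlap, and the lower old library was 1.65 times as high as the higher young library. *Itgb3* had a log2 fold change of 1.20 (standard error 0.39, adjusted p = 0.715 from edgeR and 0.275 from DESeq2), and it ran from 0.82 to 1.67 with a library left out.

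A ratio of 2 chains within a library does not depend on the scaling between libraries, so 8 ratios were computed from FPKM, 7 of them of known partners. *Itgae* was at 0.268 and 0.930 times *Itgb7* in old replicates 1 and 2, against 0.0588 and 0.116 times in young replicates 1 and 2. The alpha chain was thus below its partner in all 4 libraries and nearest to it in old replicate 2. *Itgax* was at 0.633 and 0.668 times *Itgb2* in old and at 0.286 and 0.427 times in young ETP. *Itgal* was at 2.21 and 0.819 times *Itgb2* in old, against 4.44 and 4.50 times in young ETP, so that *Itgal* exceeded *Itgb2* in 3 libraries and not in old replicate 2. *Itgb7* was at 0.764 and 1.05 times *Itgb1* in old and at 0.509 and 0.416 times in young ETP, the beta chains between which α4 is shared. *Itga4* was at 1.39 and 2.86 times *Itgb7* in old and at 2.96 and 9.45 times in young ETP. *Itgav* was at 1.07 and 1.51 times *Itgb3* in old and at 3.53 and 2.45 times in young ETP.

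These 6 ratios did not overlap between the ages, nor did that of *Itga6* to *Itgb1*, at 0.128 and 0.114 in old and 0.131 and 0.154 in young ETP. Each of the 7 had p = 0.333 in an exact two-sided permutation test over the 4 libraries (adjusted p = 0.381 over the 8 ratios), which is the smallest p that 2 libraries against 2 allow. *Itga4* to *Itgb1* overlapped, at 1.06 and 3.01 in old and 1.51 and 3.93 in young ETP (exact permutation p = 0.667). Several of the 8 ratios share a chain, so they are not independent of each other. Of the summed TPM of the 4 beta chains, *Itgb2* made up 38.4 ± 14.9% in old and 22.7 ± 1.57% in young ETP, *Itgb1* 30.8 ± 10.6% in old and 50.6 ± 0.225% in young ETP, and *Itgb7* 26.9 ± 3.37% in old and 23.4 ± 3.24% in young ETP. Of the summed TPM of the 6 alpha chains, *Itgax* and *Itgae* made up 15.9 ± 4.28% and 9.43 ± 5.26% in old, against 3.09 ± 0.121% and 0.753 ± 0.0365% in young ETP.

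**Figure D3:**
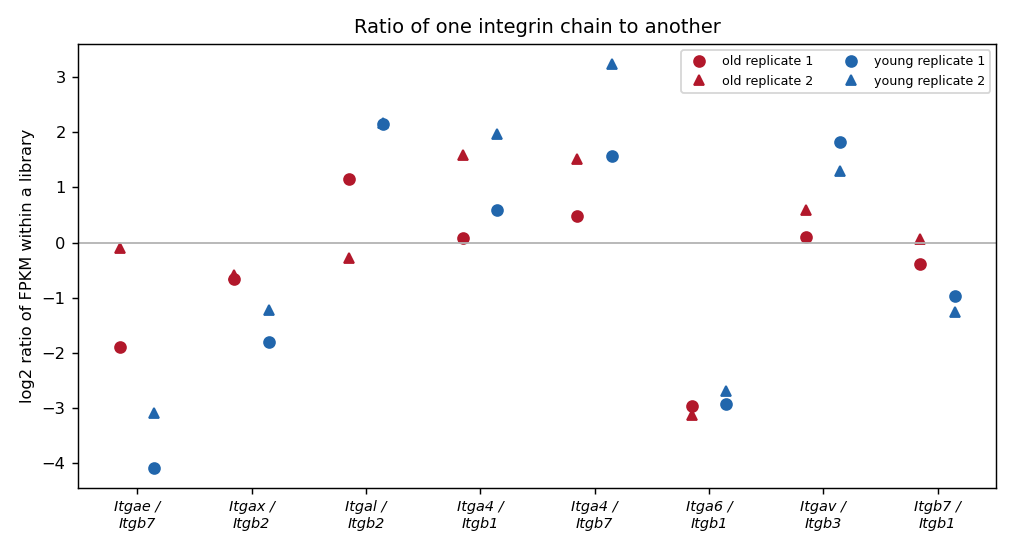
Log2 ratio of FPKM of 2 integrin chains within each library, red for old and blue for young ETP, with the line at equal levels. The ages separate in 7 of the 8 ratios, which share chains and so are not independent. *Itgae* to *Itgb7* spans the widest range, from 0.0588 in young replicate 1 to 0.930 in old replicate 2.

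Of the other 16 integrin chains, only *Itga5*, *Itga9* and *Itgam* passed the filter. None of these passed edgeR, as for the 10 genes above. *Itga9*, an alpha chain that pairs with β1 and binds tenascin, was at 92.5 and 71.7 normalized CPM in old and at 128 and 155 in young ETP. It was the only integrin chain with an unadjusted p under 0.05 toward lower levels in old ETP (log2 fold change -0.79, standard error 0.28, adjusted p = 0.798 from edgeR). *Itga5*, the fibronectin receptor chain, was at 48.8 and 69.9 normalized CPM in old and at 42.0 and 51.7 in young ETP, with overlap. Of the 13 untested chains, *Itga1*, a collagen receptor chain found on tissue-resident lymphocytes, was at 3.33 and 20.9 normalized CPM in old and at 1.70 and 1.60 in young ETP. *Itga8* was at 5.24 and 23.7 normalized CPM in old and at 0.41 and 1.76 in young ETP, and old replicate 2 was the highest library for either gene. *Itga1* and *Itga8* each share exonic positions with another gene. *Itga2b*, the platelet partner of *Itgb3*, was at 5.24 and 4.36 normalized CPM in old and at 4.21 and 3.36 in young ETP. *Itga3*, a laminin receptor chain, was at 6.73 and 7.63 normalized CPM in old and at 2.69 and 1.60 in young ETP. *Itga2*, *Itga7*, *Itga10*, *Itga11*, *Itgb4*, *Itgb5* and *Itgb6* stayed at or below 5.93 normalized CPM in each library, and *Itgb8* had 1 fragment over all 4 libraries.

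Of 15 genes that bring integrins to their active state, 12 were tested, and their log2 fold changes lay between -0.22 and 0.56. There were 9 with higher and 3 with lower estimates for old ETP (46.6% and 53.4% of all tested genes) and a median log2 fold change of 0.07. At an unadjusted p under 0.05, 0 were higher and 0 lower, against 4.65% and 0.913% of all tested genes. None passed edgeR, as for 0% of all tested genes, and DESeq2 called 0 higher and 0 lower, against 2.08% and 0.149%. *Fermt3*, the kindlin of blood cells, was at 155 and 176 normalized CPM in old and at 147 and 126 in young ETP. *Rap1a*, a small GTPase upstream of talin, was at 66.8 and 319 normalized CPM in old and at 88.7 and 284 in young ETP, with the higher level in the second library of either age. *Rap1b* was at 199 and 242 normalized CPM in old and at 165 and 216 in young ETP, and *Rasgrp2*, which loads Rap1 with GTP, at 69.3 and 42.9 in old and 67.8 and 63.4 in young ETP. Of 7 inhibitors 5 were tested, and 0 had an unadjusted p under 0.05 or passed either tool, against the same shares of all tested genes. *Flna*, the filamin that competes with talin for the beta tail, was at 799 and 780 normalized CPM in old and at 587 and 574 in young ETP, without overlap (log2 fold change 0.44, standard error 0.26, adjusted p = 0.999 from edgeR). *Dok2*, an adaptor of the Dok family, was at 48.0 and 25.3 in old and at 62.4 and 38.8 in young ETP.

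Of 26 genes of the adhesion complex and of signalling from integrins, 21 were tested. Their estimates, 15 higher and 6 lower for old ETP (46.6% and 53.4% of all tested genes), had a median log2 fold change of 0.10. None passed edgeR, and 4 were higher and 0 lower at an unadjusted p under 0.05, against 4.65% and 0.913% of all tested genes. DESeq2 called 2 higher and 0 lower, against 2.08% and 0.149% of all tested genes. *Fgr*, which encodes a kinase of the Src family found mostly in myeloid cells, was among those DESeq2 called. *Fgr* was at 12.0 and 57.1 normalized CPM in old and at 5.09 and 5.93 in young ETP (log2 fold change 2.64, standard error 0.78, adjusted p = 0.609 from edgeR and 0.0146 from DESeq2), and its log2 fold change was 1.10 without old replicate 2. Also higher at an unadjusted p under 0.05 were *Skap2*, an adaptor of integrin signalling in myeloid cells, at 121 and 191 normalized CPM in old and 73.3 and 76.1 in young ETP, and the paxillin relative *Lpxn* at 7.48 and 15.0 in old and 3.45 and 4.65 in young ETP. *Fgr*, *Skap2* and *Lpxn* were named after their values were seen. *Parvg*, the parvin of blood cells, was at 380 and 415 normalized CPM in old and at 376 and 406 in young ETP, and *Zyx*, a focal adhesion protein, at 431 and 331 in old and 327 and 306 in young ETP. *Actn4*, an actinin that links integrins to actin, was at 170 and 163 in old and at 214 and 186 in young ETP (log2 fold change -0.26, adjusted p = 0.999 from edgeR).

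All 9 membrane proteins that associate with integrins were tested. None passed edgeR, as for 0% of all tested genes, and DESeq2 called 0 higher and 0 lower, against 2.08% and 0.149%. At an unadjusted p under 0.05, 1 was higher and 0 were lower, against 4.65% and 0.913% of all tested genes. That gene was the tetraspanin *Cd9*, at 44.1 and 43.8 normalized CPM in old and at 20.9 and 18.4 in young ETP (log2 fold change 1.16, standard error 0.29, adjusted p = 0.456 from edgeR). *Cd47*, which associates with β3 and other integrins, was at 443 and 537 in old and at 547 and 734 in young ETP, and *Cd53* at 403 and 507 in old and 431 and 572 in young ETP. Of 15 ligands only 5 were tested, and 0 passed edgeR. At an unadjusted p under 0.05, 2 of the 5 were higher and 0 lower, against the same 4.65% and 0.913% of all tested genes. DESeq2 called 1 of the 5 higher, against 2.08% of all tested genes. *Cdh1*, which encodes E-cadherin, the ligand of αEβ7, was the gene DESeq2 called, at 25.3 and 61.0 normalized CPM in old and 10.6 and 13.0 in young ETP (log2 fold change 1.87, standard error 0.50, adjusted p = 0.509 from edgeR and 0.0329 from DESeq2). It was also named after its values were seen, and the log2 fold change was 1.08 without old replicate 2. *Icam1*, the main ligand of LFA-1, was at 88.8 and 91.7 normalized CPM in old and at 48.3 and 45.5 in young ETP, with little spread in either age (log2 fold change 0.94, standard error 0.24, adjusted p = 0.466 from edgeR). *Lamc1*, a laminin chain, was at 45.7 and 23.3 in old and at 53.9 and 60.1 in young ETP, and *Tgfb1* at 145 and 97.8 in old and 104 and 80.9 in young ETP. *Madcam1* and *Vtn*, ligands of α4β7 and αVβ3 that are made by endothelium and liver, had 0 fragments in all 4 libraries, which allows up to 0.176 to 0.654 normalized CPM.

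**Figure D4:**
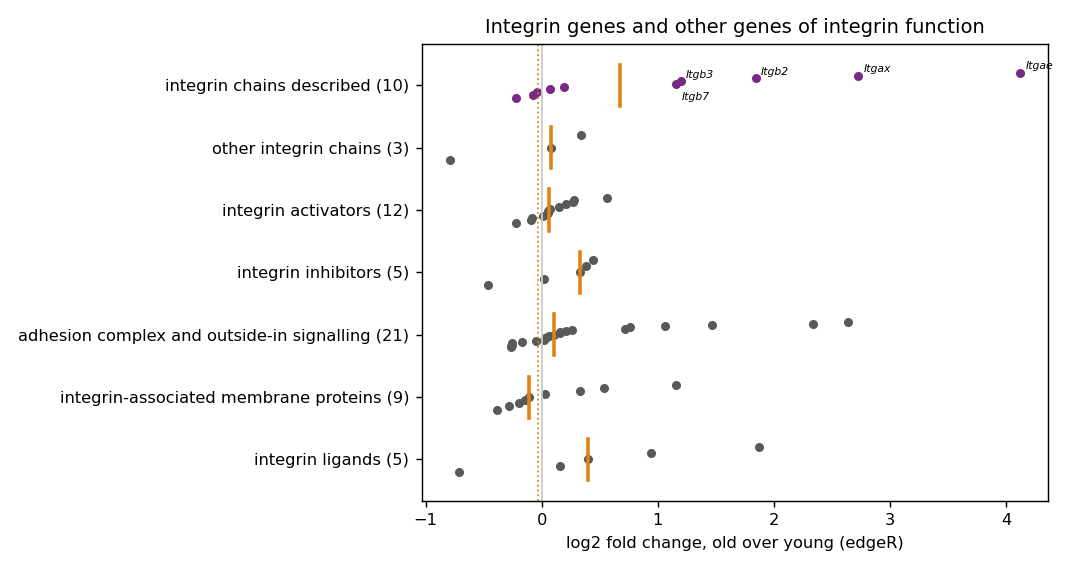
Log2 fold change, old over young, for the tested genes of each group, with the number of genes in parentheses, each point a gene (names only for integrin chains above 1) and each orange bar the median of its group. The dotted line is the median of all tested genes at -0.03, and 5 of the 10 integrin chains described lie above 1, against 4 of the 21 adhesion complex genes.

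Markers of other cell types were set beside the integrin genes, since *Itgax*, *Itgae* and *Itgb2* are also expressed by cells other than ETP. A marker low in young ETP could pass the filter through its old libraries alone. Counts and medians of tested markers, here and below, therefore only describe these lists. Of 12 markers of conventional dendritic cells 10 were tested, 9 with higher and 1 with lower estimates in old ETP (46.6% and 53.4% of all tested genes). The ages did not overlap for 8 that were higher, against 16.1% of all tested genes, and for 1 that was lower, *Sirpa*, against 15.5%, a gene named after its values were seen. Led by *Wdfy4* and *Naaa*, they summed to 1525 and 4163 normalized CPM in old replicates 1 and 2, against 668 and 796 in young replicates 1 and 2, and 0 of the 12 were absent from all libraries. *Xcr1*, a receptor of cross-presenting dendritic cells, was at 96.4 and 618 normalized CPM in old and at 10.2 and 26.7 in young ETP. *Zbtb46*, a transcription factor of dendritic cells, was at 12.6 and 45.5 normalized CPM in old and at 3.04 and 3.68 in young ETP. For both genes, as for *Itgae*, *Itgax* and *Itgb2*, old replicate 2 was the highest library and old replicate 1 lay between it and the young libraries. *Itgb3*, *Itgb7* and *Icam1* also had their highest level in old replicate 2, with old replicate 1 next, but the 2 old libraries were nearer to each other, within 1.36 times. The part of dendritic cell RNA in these differences was not tested.

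For NK and innate lymphoid cells, 6 of 14 markers were tested, 5 with higher and 1 with lower estimates in old ETP (46.6% and 53.4% of all tested genes). The ages did not overlap for 4 that were higher, against 16.1% of all tested genes, and for 0 that were lower, against 15.5%. The median log2 fold change was 3.27 for these 6 markers and 3.10 for the 10 tested markers of conventional dendritic cells. Both medians leave out the untested markers, and the filter admits markers that reach it in old ETP only. Led by *Nkg7* and *Klrk1*, they summed to 340 and 345 normalized CPM in old and 240 and 246 in young ETP, and *Tbx21* was at 0 in both young libraries. *Ncr1*, an NK cell receptor gene, was at 8.40 and 7.19 normalized CPM in old and at 0.0585 and 0.320 in young ETP. Markers of later T lineage cells, led by *Lat* and *Cd28*, summed to 149 and 170 normalized CPM in old and 129 and 81.5 in young ETP, with *Cd3e* at 11.2 and 36.2 in old and 3.34 and 2.88 in young ETP. Of the 7 tested, 4 were higher and 1 was lower in old ETP without overlap, against the same 16.1% and 15.5% of all tested genes. The lineage cocktail held antibodies to CD3ε, CD8α, TCRβ, TCRγδ and NK-1.1, which mark T and NK cells for removal, and to B220 and IgM of B cells. The part of lymphocyte RNA in the level of *Itgae*, which lymphocytes also express, was not tested. Markers of mast cells and basophils (*Cpa3* and *Gata2* leading), which carry *Itgae* and *Itgb7*, summed to 133 and 182 normalized CPM in old and 109 and 161 in young ETP, so that the ages overlapped. Markers of megakaryocytes and platelets, which carry *Itgb3*, summed to 8.23 and 17.9 normalized CPM in old and 11.4 and 8.97 in young ETP. *Vwf* and *Gp9* led this list, 4 of its 10 markers (*Ppbp*, *Gp1bb*, *Gp6* and *Treml1*) were at 0 in all libraries, and *Pf4*, the platelet factor gene, had 1 fragment over all libraries, in old replicate 1. Markers of plasmacytoid dendritic cells, led by *Tcf4* and *Tlr9*, summed to 275 and 521 normalized CPM in old and 263 and 450 in young ETP, and those of monocytes, macrophages and granulocytes, led by *Mpo* and *Lyz2*, to 1463 and 674 in old and 2014 and 1299 in young ETP. Markers of B lineage cells, led by *Cd79b* and *Blk*, summed to 51.4 and 71 normalized CPM in old and 50.1 and 42.4 in young ETP. Those of thymic epithelium, stroma and endothelium summed to 167 and 151 in old and 148 and 185 in young ETP, with *Pecam1* and *Epcam* leading and *Krt14* and *Foxn1* at 0 in all libraries. The 10 markers of ETP and of the sorting gate summed to 3319 and 2904 normalized CPM in old and 3382 and 3759 in young ETP.

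**Figure D5:**
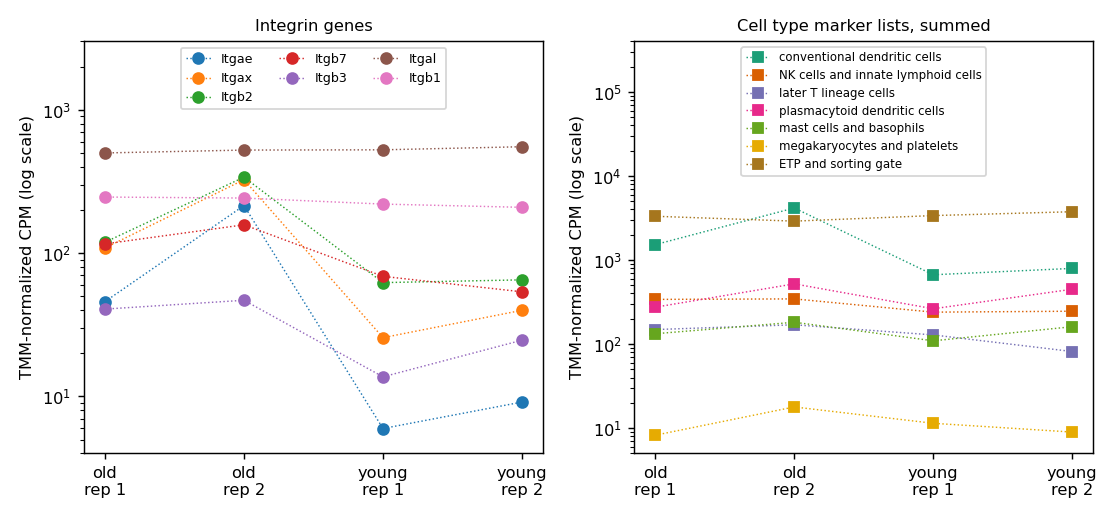
Normalized CPM on a log axis in each library for 7 integrin genes (left) and for the summed markers of 7 cell types (right), where dotted lines only link the points of a gene or list. *Itgae*, *Itgax* and *Itgb2* and the markers of conventional dendritic cells have their highest level in old replicate 2, at 215, 325, 339 and 4163 normalized CPM, while *Itgal* and *Itgb1* are nearly level.

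Likeness of pattern was measured as the distance between log2 levels centred on each gene's mean over the 4 libraries, where 0 is an identical pattern. The nearest genes to *Itgae* were *Kcnip3* at a distance of 0.154 and *4930506M07Rik* at 0.206, and only 15 of the tested genes lay within 0.5. *Itgax* was nearest to *Gimap3* (0.125) and *Slfn2* (0.138), *Itgb2* to *Amz1* (0.144) and *Zbp1* (0.215), and *Itgb7* to *Praf2* (0.0952) and *Psmb9* (0.151). *Itgb3* was nearest to *Prkab2* (0.242) and *Rab38* (0.246). *Itga4* was nearest to *G2e3* (0.0311), with 340 genes within 0.5. For *Itga6*, *Itgal*, *Itgav* and *Itgb1*, between 2147 and 3961 genes lay within 0.5, and the nearest were *Rnf216*, *Mat2b*, *Tceanc2* and *Supt6* in this order. All genes share the same 4 libraries, and the distances carry no test.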

How the data were processed

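RNA of ETP was measured in 2 old and 2 young libraries. Reads were aligned by the authors (study's methods, submitters' processing notes) with STAR 2.3.0 to GRCm38 (mm10), and the table has the layout of Cuffdiff (Cufflinks 2.1.1). The authors' deposited estimated counts are fragments per gene and library, and the authors' deposited FPKM are those fragments after scaling and division by length. A further deposited column holds the scaled fragments, a signal that differs from the counts by 1 factor in each library (0.824 and 1.37 for old and 0.723 and 1.20 for young replicates 1 and 2), and was used for this factor only. FPKM kept a difference in depth, with sums of 230420 and 122998 in old and 281542 and 135313 in young ETP. FPKM were therefore compared within libraries or as TPM (FPKM rescaled to the same sum in each library), except in the limma fits. Those fits compared FPKM between the ages without this rescaling. Libraries numbered 0 and 1 in the table are called replicates 1 and 2, and only the age of each library is taken from the labels.

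Estimated counts were rounded, normalized by TMM and tested with edgeR 4.0.16 (quasi-likelihood, age as the only term, Benjamini-Hochberg over 10080 genes, threshold 0.05) in R 4.3.3. Standard errors come from the same fit. Alternatives were DESeq2 1.42.0, limma 3.58.1 on log2(FPKM + 1) and log2(FPKM + 0.1), median-of-ratios scaling, other filters, a block for the replicate number, and fits without each library in turn. A count of 0 allows up to 3 counts, and such limits cover counting error only, since PCR copies are not independent molecules. The integrin genes and the gene lists were chosen with earlier results of these data known. Named are all integrin genes with a row, the 2 genes of each pathway list with the highest FPKM, those with the smallest p in each direction, the 2 leading genes of each marker list and *Kit*, *Cd44*, *Il2ra*, *Xcr1*, *Zbtb46*, *Ncr1*, *Cd3e* and *Pf4*. *Adgre1* had no row, and the list holds its older symbol *Emr1*. A few genes that meet this rule are not reported here. Genes named outside this rule were chosen after their values were seen. Positions are from GENCODE M21 (GRCm38).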

Additional observations from a re-analysis of the deposited data

How the results depend on the processing

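The calls of integrin genes depended on the fit, while *Itgae*, *Itgax*, *Itgb2*, *Itgb3* and *Itgb7* had positive log2 fold changes under every alternative that tested them. DESeq2 called 210 genes higher and 15 lower in old ETP and 3 of the 10 integrin genes (*Itgae*, *Itgax*, *Itgb2*), and edgeR without a filter on low values called 474 higher, 34 lower and the same 3. With the replicate number as a block, edgeR called 578 higher, 199 lower and 5 integrin genes, those 3 with *Itgb3* and *Itgb7*, all higher, and also *Itga9*, which was lower (log2 fold change -0.78, adjusted p = 0.0288 from edgeR). Over the tested genes, deviations of same-numbered libraries from their age means correlated with r = 0.734, but no source used here ties a number to a shared animal, batch or day. With a library left out, edgeR called 0 to 218 genes higher, 0 to 3 lower and 0 to 3 integrin genes. The calls came without old replicate 1, where the lone old library is assumed to vary like the young ones. The median log2 fold change of the integrin genes was 0.21 when FPKM had to reach 1 in all libraries, where *Itgae* drops out, 0.26 with limma on log2(FPKM + 1), and 0.53 to 0.88 with a library left out. On the FPKM scale the log2 fold changes took the other sign, with pseudocounts of 1 and 0.1, for *Itgav* (-0.19 and -0.24), *Itgb1* (-0.095 and -0.099), *Itgam* (-0.18 and -0.21) and *Fermt3* (-0.014 and -0.012). All tested genes had a median log2 fold change of -0.27 on this scale with the pseudocount of 1. With a library left out, signs also turned within the ranges of *Itga4* (-1.15 to 0.57), *Itga6* (-0.12 to 0.035), *Itgav* (-0.34 to 0.43), *Itgam* (-0.17 to 0.33), *Rasgrp2* (-0.57 to 0.052) and the log2 ratio of *Itga4* to *Itgb1* (-1.20 to 0.31). The causes of these turns were not tested. At 4839341 fragments, the shallowest library, a gene below 0.654 normalized CPM cannot be told from absent.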
